A study of Homo sapiens with 9 samples.

Results

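This account concerns 9 genes that set the balance between matrix-cutting and shedding proteases and their inhibitors: TIMP1, TIMP2, TIMP3 and RECK as inhibitors, MMP2, MMP9 and MMP14 as matrix metalloproteinases, and ADAM10 and ADAM17 as membrane sheddases. They were taken by symbol from the 25680 gene symbols of the count files, each symbol being represented by its RefSeq row with the highest total, and 7 of the 9 were among the 14199 genes that passed the filter on low counts. RECK and MMP9 did not pass. The set was built around TIMP3, which was selected on its measured differences between the groups of these samples, and the other members were added for their function. The differences between groups given here for the members are therefore descriptions, printed without p-values. Where members that pass a p threshold between groups are counted or named, nothing is read from it.

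All 9 samples were of SKNO-1, an established line from a patient with acute myeloid leukaemia, and so all carried its AML1-ETO (RUNX1-RUNX1T1) fusion. The groups were EV, the control, and SH2 and SH3, which carried either of 2 shRNAs against ASXL2, a chromatin regulator of the Additional sex combs family. Each group held 3 samples, which the labels number 1, 13 and 25 without saying what the numbers stand for. The abbreviation EV is not spelled out in the labels, whereas the text of the paper speaks of a control shRNA, and which of these the vector was could not be settled. The paper calls them biological triplicates. It does not say whether they came from separate infections. The p-values set differences against the spread between these samples, so they may not hold for further infections.

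Metalloproteinases depend on zinc in their active site and are made as inactive precursors. The secreted gelatinases MMP2 and MMP9 cut denatured collagen and basement membrane, and MMP14 sits in the plasma membrane, where it activates MMP2 with TIMP2 acting as the bridge. ADAM10 and ADAM17 release the outer parts of membrane proteins, among them NOTCH receptors, TNF and cytokine receptors. Each TIMP protein blocks the enzymes it inhibits one to one. TIMP3 differs from its relatives in that it binds to the extracellular matrix and also inhibits ADAM17, and RECK is a membrane-anchored inhibitor.

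Messenger RNA was read by RNA-seq, and totals with 1 row per gene were 27714431 to 35406063 counts per sample. ASXL2 (NM_018263) checked the labels: its level was 67.9, 67.9 and 74.7 CPM (the count as a share of the library size after TMM scaling, on the usual CPM scale) in the EV samples numbered 1, 13 and 25, 30.4, 36.2 and 36.2 CPM in SH2, and 26.9, 29.1 and 41.1 CPM in SH3. Neither knockdown group overlapped EV, whereas SH2 and SH3 overlapped each other. The log2 difference from EV was -1.03 (SE 0.16) in SH2 and -1.12 (SE 0.16) in SH3 and did not pass without the replicate block (edgeR adjusted p 0.808 and 0.612). It passed with the block (edgeR adjusted p 0.00469 and 0.00407), and with DESeq2 without the block (DESeq2 adjusted p 5.34e-05 and 2.58e-06). The blocked edgeR call for SH2 was lost without the SH2 sample numbered 1 (edgeR adjusted p 0.0694). Leaving out the SH2 sample numbered 25 also lost it (edgeR adjusted p 0.115). The samples numbered 1 stood apart from the others on the first principal component, which held 52.9% of the variance. Of 8 myeloid leukaemia markers 6 were above 1 CPM on average in every group, with summed levels of 7269 to 11295 CPM, while CD34 was at 0.0680 to 0.309 CPM and CSF2RA had no count in EV and SH3. The paper grew SKNO-1 with GM-CSF, the ligand of the receptor that CSF2RA encodes in part. The lack of counts is therefore not read as absence of that receptor. The 6 stromal markers summed to 1.00 to 2.13 CPM in any sample, COL1A2 had no count in any group, and the 5 endothelial markers summed to 4.37 to 9.70 CPM with CDH5 at 0. T cell markers summed to at most 0.0693 CPM and B cell markers to 1.70 to 3.34 CPM, with MS4A1 at 0.

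TIMP3 is the member on which the comparison of the shRNAs turned. Its RefSeq row was NM_000362, and the gene spans positions 33197691 to 33259028 of chromosome 22 (GRCh37, plus strand), inside SYN3, a synapsin gene on the opposite strand. The libraries did not keep strand, but no exon of the canonical TIMP3 transcript overlaps one of SYN3, and SYN3 held 0 to 3 counts per sample. The 250 bases before its RefSeq start, chr22:32801455-32801704 on the plus strand of GRCh38.p14, are shown because the TIMP3 transcript begins just after them. Capitals mark the GC boxes, the letters GGGCGG on either strand.
TIMP3 upstream: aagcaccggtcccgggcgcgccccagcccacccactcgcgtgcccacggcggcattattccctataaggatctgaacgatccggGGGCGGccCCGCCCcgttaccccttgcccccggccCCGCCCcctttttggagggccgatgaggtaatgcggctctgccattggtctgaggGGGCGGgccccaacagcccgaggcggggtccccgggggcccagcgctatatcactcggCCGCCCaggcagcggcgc

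This stretch was 72.4% G and C, against a median of 58.0% over the 35116 upstream stretches of the same length in the RefSeq table. It held 5 GC boxes. At least 1 was in 42.6% of all stretches, and the share with 5 or more was not counted. The stretches of ADAM17 and RECK held 3 each, that of TIMP1 held 2, and those of MMP14 and ADAM10 held 1 each. The RUNX core letters TGTGGT, searched on both strands, were not in the TIMP3 stretch. They occurred once each in the stretches of TIMP1 and MMP14, and in 10.98% of all stretches. Of the 9 members 6 had an entry, and those of TIMP2, MMP2 and MMP9 were not given.

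TIMP3 was higher in SH2 and lower in SH3 than in EV. Its level was 10.4, 14.5 and 11.8 CPM in the EV samples numbered 1, 13 and 25. In SH2 it was 16.2, 19.0 and 16.9 CPM, and every SH2 sample lay above every EV sample. In SH3 it was 7.70, 10.7 and 4.33 CPM, and the sample numbered 13 reached just above the lowest EV sample, so these groups overlapped. SH2 and SH3 did not overlap. The group means were 12.2 ± 2.11 CPM in EV, 17.4 ± 1.45 CPM in SH2 and 7.56 ± 3.16 CPM in SH3 (SD, n = 3 each). The counts behind these levels were 119 to 607 per sample.

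**Figure D1:**
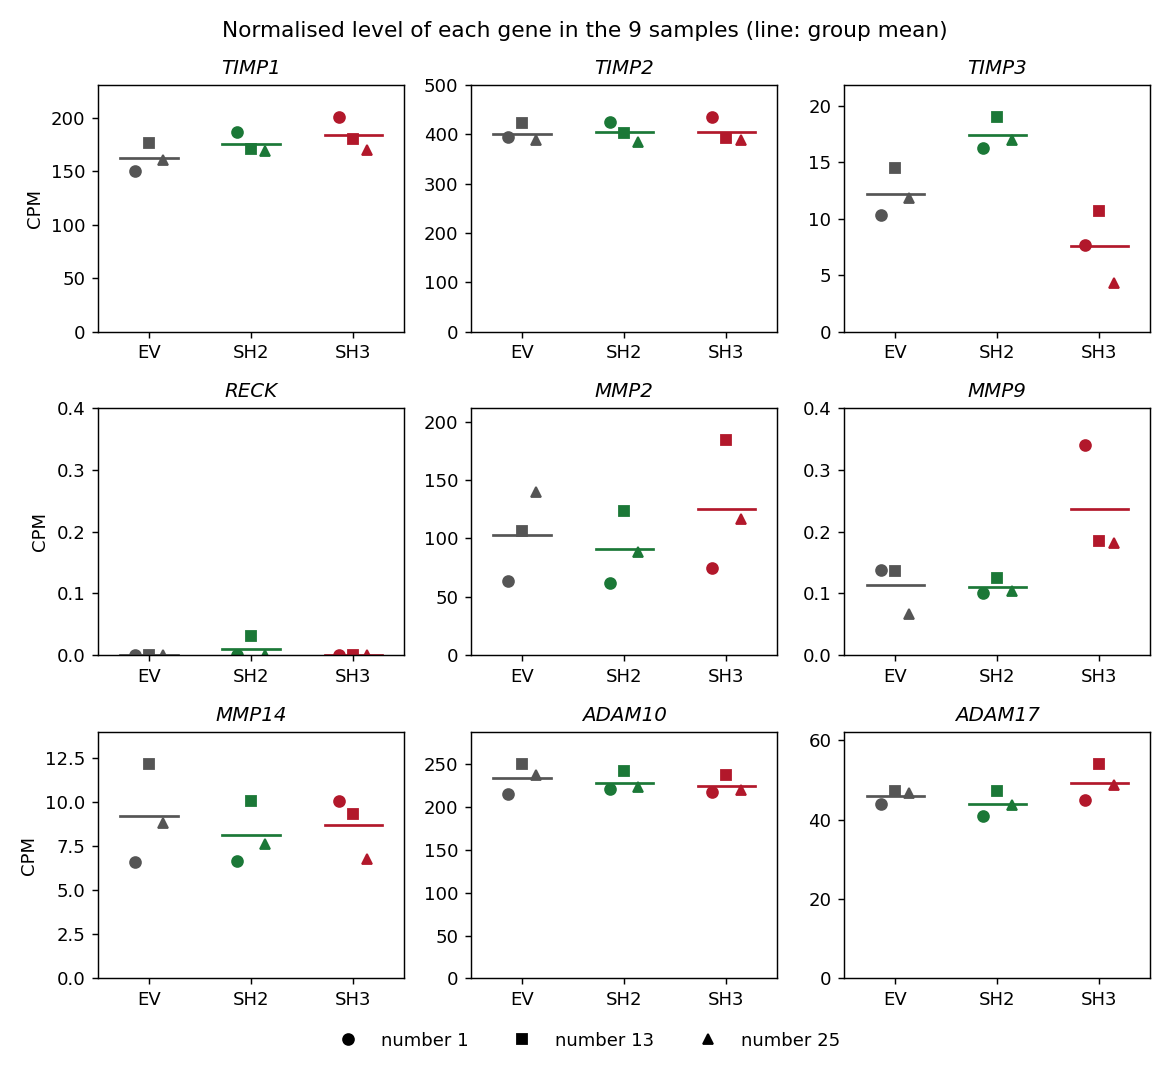
Normalised level (CPM, linear axis from 0) of each of the 9 genes in the 9 samples, with symbols for the replicate number and a line at the group mean. TIMP3 separates SH2 (16.2 to 19.0 CPM) from SH3 (4.33 to 10.7 CPM), TIMP2 and ADAM10 stay level, MMP2 spreads widely within each group, and RECK and MMP9 lie near 0.

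Set against the sample of the same number, TIMP3 was lower in SH3 than in SH2 by log2 ratios of -1.08, -0.84 and -1.97 for numbers 1, 13 and 25. Against EV the ratios were 0.65, 0.39 and 0.52 for SH2 and -0.43, -0.45 and -1.45 for SH3. The SH3 sample numbered 25 was thus the farthest from its control, and the ratios of SH3 spread more (SD 0.58) than those of SH2 (SD 0.13). In the fit across all genes the SH3-to-SH2 difference was -1.20 (SE 0.28) without the replicate number as a block and -1.24 (SE 0.19) with it, which is 0.424 of the SH2 level. The difference from EV was 0.51 (SE 0.27) for SH2 and -0.69 (SE 0.28) for SH3. Without the SH3 sample numbered 25, the unblocked difference from EV in SH3 was -0.41, and the difference from SH2 was -0.92.

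The contrasts of SH2 and SH3 with EV share their EV samples. TIMP3 was 1 of 123 genes (0.866% of those tested) that lay above the same-numbered EV sample in SH2 and below it in SH3 for all 3 numbers, and 0.986% did the reverse. SH3 lay wholly below SH2 in 1 of the 7 tested members and in 2.44% of all genes. SH2 lay wholly above EV in 1 tested member, TIMP3, and in 7.15% of all genes, and SH3 and EV were apart in 0 tested members and in 10.1% of all genes.

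As a count of calls at an adjusted p under 0.05, edgeR without the block called 0 of the 7 tested members between SH3 and SH2, and 0% of all genes, and 1 member and 2.06% of all genes had an unadjusted p under 0.05. With the replicate number as a block it called 1 member, TIMP3, against 0.106% of all genes in either direction and 0.0423% with SH3 lower. In that fit 3 members, TIMP3, MMP2 and ADAM17, had an unadjusted p under 0.05, against 1693 of the 14199 genes. DESeq2 without the block also called TIMP3 alone, against 0.0775% of all genes. The blocked call was absent when any 1 of 5 samples was left out: SH2 numbered 1, 13 or 25, SH3 numbered 25 or EV numbered 25. The difference then ranged from -1.38 to -0.95. For SH2 against EV and for SH3 against EV, edgeR called 0 members with and without the block, where it called 0.282% and 0.416% of all genes with the block and 0% without it. The members at an unadjusted p under 0.05 without the block numbered 0 and 1, against 5.37% and 5.09% of all genes, and DESeq2 called 0 in both, against 0.168% and 0.207% of all genes. With the block the unadjusted counts were 1 and 1, against 2656 and 2652 of the 14199 genes. Without the SH3 sample numbered 1, the blocked fit called TIMP3 in both of these contrasts. Since these contrasts were in view when the set was formed, nothing is read from the counts.

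**Figure D2:**
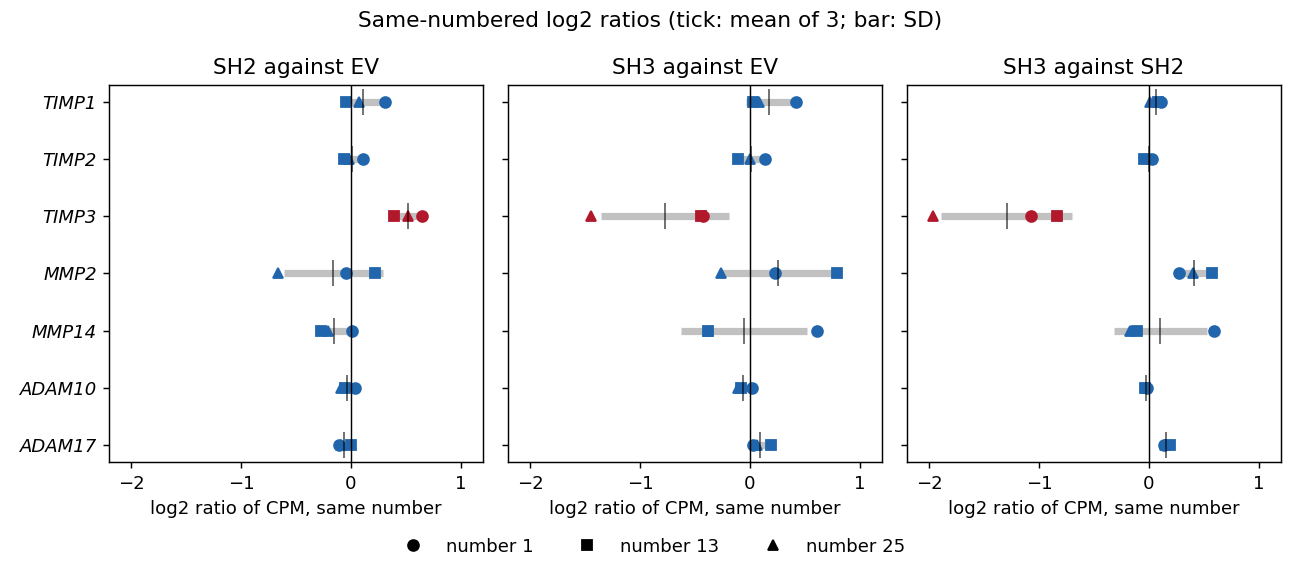
Log2 ratio of CPM between same-numbered samples for the 7 tested members in the 3 contrasts, with the mean as a tick and the SD as a grey bar. TIMP3 (red) lies to the right of 0 for SH2 against EV and to the left for the other contrasts, while TIMP2 and ADAM10 lie within 0.14 of 0 throughout.

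The other TIMP genes did not follow TIMP3. TIMP1 (NM_003254, chromosome X, 47441807 to 47446188, plus strand), a secreted inhibitor with a preference for MMP9, was 150.1, 177 and 160.2 CPM in the EV samples numbered 1, 13 and 25. It was 186, 171 and 169 CPM in SH2 and 201, 180.4 and 170.0 CPM in SH3, and all groups overlapped. The difference from EV was 0.11 (SE 0.10) in SH2 and 0.18 (SE 0.10) in SH3, and it came largely from number 1, with ratios of 0.31 and 0.42. TIMP1 also lies inside a synapsin gene, SYN1 on the opposite strand, whose level of 1.46 to 2.48 CPM was far below that of TIMP1.

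TIMP2 (NM_003255, chromosome 17, 76849059 to 76921469, minus strand), the partner of MMP14 in MMP2 activation, was the steadiest of the inhibitors. Its level was 395, 422 and 388 CPM in EV, 425, 404 and 384 CPM in SH2, and 435, 393 and 389 CPM in SH3. Its differences from EV were 0.01 (SE 0.09) in both knockdown groups, and the same-numbered ratios lay between -0.10 and 0.14.

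Because TIMP1 and TIMP2 were abundant and level, TIMP3 was a small part of the TIMP pool. Its share of the summed CPM per kb of the 3 genes was 0.738%, 0.907% and 0.810% in the EV samples numbered 1, 13 and 25. It was 0.976%, 1.23% and 1.12% in SH2 and 0.439%, 0.673% and 0.287% in SH3. The groups did not overlap on this scale, but it moves with TIMP1 as well, which was lowest in the EV sample numbered 1 (150 CPM). In CPM, TIMP3 of SH3 and EV did overlap, at 10.7 in the SH3 sample numbered 13 and 10.4 in the EV sample numbered 1. TIMP4, the remaining family member, had no count in any sample. RECK had 1 count in the SH2 sample numbered 13 and none elsewhere. The smallest level this depth could show, 3 counts, was 0.0825 to 0.109 CPM per sample, a floor that covers counting error only.

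Among the proteases MMP2 varied most. MMP2 (NM_004530, chromosome 16, 55423612 to 55540603, plus strand) was 63.7, 106 and 140 CPM in the EV samples numbered 1, 13 and 25. It was 61.8, 124 and 88.5 CPM in SH2 and 74.6, 184 and 117 CPM in SH3. The 3 groups overlapped throughout. By number, SH3 lay above SH2 at each, with log2 ratios of 0.27, 0.57 and 0.40, against 16.3% of all genes that were higher in all 3 numbers. The difference was 0.45 (SE 0.38) without the block and 0.42 (SE 0.16) with it. Against EV the ratios had mixed signs, from -0.66 to 0.22 in SH2 and from -0.26 to 0.79 in SH3.

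MMP2 has a second RefSeq row, NM_001127891, whose counts were lower by 61 to 183 per sample. This difference was 2.86% to 3.79% of the NM_004530 count, so both rows measured nearly the same reads.

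MMP14 (NM_004995, chromosome 14, 23305769 to 23318250, plus strand), the membrane-bound activator of MMP2, was 6.60, 12.2 and 8.80 CPM in EV, 6.66, 10.1 and 7.62 CPM in SH2, and 10.1, 9.33 and 6.77 CPM in SH3. The groups overlapped, and its highest and lowest levels both fell in EV. The difference from EV was -0.18 (SE 0.26) in SH2 and -0.07 (SE 0.26) in SH3, and in SH3 its ratio was 0.61 for number 1 but -0.39 and -0.38 for the others. MMP9, the gelatinase of neutrophil granules, was at the edge of detection. It held 5, 4 and 2 counts in EV, 3, 4 and 3 in SH2, and 10, 6 and 5 in SH3, which is 0.182 to 0.340 CPM in SH3 and at most 0.138 CPM elsewhere. By CPM every SH3 sample was thus above every other sample, but the SH3 sample numbered 25 and the EV sample numbered 1 both held 5 counts. Of all genes tested, 10.1% had SH3 and EV apart in either direction. The share with SH3 above both EV and SH2 was not counted, so this order has no like share beside it. MMP9 was not tested, and no fold is given at such counts.

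The sheddases were level. ADAM10 (NM_001110, chromosome 15, 58881008 to 59041990, minus strand), which cuts NOTCH receptors, was 216, 251 and 238 CPM in the EV samples numbered 1, 13 and 25. It was 221, 242 and 223 CPM in SH2 and 218, 237 and 219.8 CPM in SH3. The groups overlapped, and the differences from EV were -0.04 and -0.06 (SE 0.09 each). ADAM17 (NM_003183, chromosome 2, 9628615 to 9696861, minus strand), the TNF-converting enzyme, was 43.9, 47.2 and 46.6 CPM in EV, 40.9, 47.2 and 43.8 CPM in SH2, and 44.9, 54.0 and 48.6 CPM in SH3. SH3 was above SH2 at each number, by 0.14, 0.19 and 0.15 on the log2 scale, a direction opposite to that of TIMP3. The groups still overlapped, and the differences from EV were -0.06 (SE 0.10) in SH2 and 0.10 (SE 0.10) in SH3.

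Read across the 7 tested members, SH3 was above SH2 at all 3 numbers for TIMP1, MMP2 and ADAM17 and below it for TIMP3 and ADAM10, and 31.1% of all genes had 1 sign at all 3 numbers (14.8% with SH3 lower). The median difference between SH3 and SH2 was 0.07 over the 7 members and 0.00 over all genes tested. The medians against EV were -0.04 in SH2 and 0.01 in SH3 for the members, and 0.01 in each for all genes.

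Levels were compared between genes per kb of the GENCODE canonical transcript. In EV the order was TIMP1 (211 ± 17.4 CPM per kb), TIMP2 (109.96 ± 4.95), MMP2 (29.4 ± 10.9), ADAM10 (21.0 ± 1.59), ADAM17 (10.5 ± 0.397), TIMP3 (2.66 ± 0.459) and MMP14 (2.48 ± 0.759; SD, n = 3 each). MMP2 and ADAM10, and likewise TIMP3 and MMP14, overlapped between their samples, whereas the other neighbours were apart. In SH2 every TIMP3 sample lay above every MMP14 sample, at 3.79 ± 0.315 against 2.19 ± 0.473 CPM per kb. In SH3 the TIMP3 mean was below that of MMP14, at 1.64 ± 0.688 against 2.36 ± 0.468, but their samples overlapped. There TIMP3 reached 2.32 CPM per kb in the sample numbered 13, and MMP14 was 1.83 in the sample numbered 25. The counted RefSeq rows need not match these lengths. ADAM10 is the member with the longest canonical transcript, 11158 nt, and its place depends on it.

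**Figure D3:**
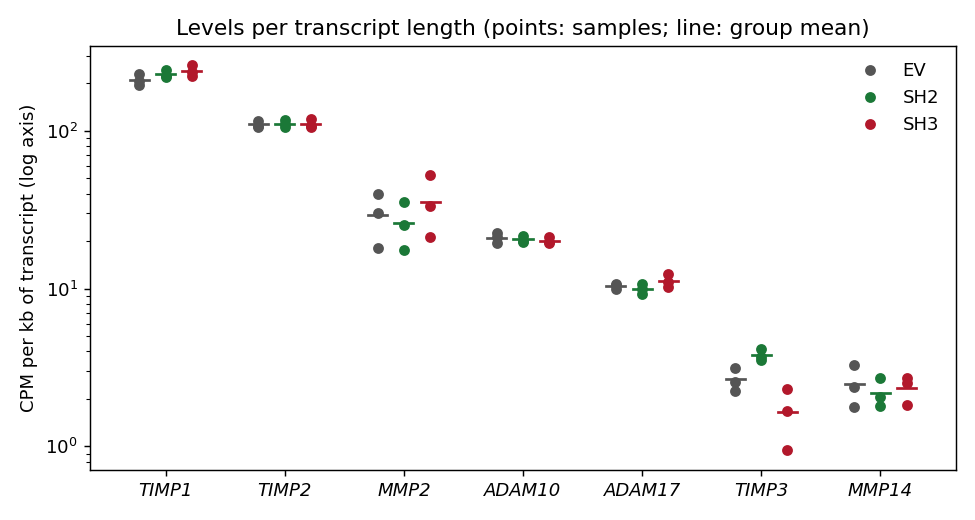
CPM per kb of canonical transcript on a log axis for the 7 tested members in the order of their EV mean, with points for samples and lines for group means. TIMP1 and TIMP2 lie above 100 CPM per kb, and TIMP3 moves from 2.66 in EV to 3.79 in SH2 and 1.64 in SH3 around a level MMP14.

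The replicate numbers gave a contrast that the choice of genes did not use. In an additive fit of group and number over the 9 samples, edgeR called 1 of the 7 tested members, MMP2, lower in the samples numbered 1 than in those numbered 13 and 25. The log2 difference was -0.91 (SE 0.14, edgeR adjusted p 0.00108), and all 3 samples numbered 1, at 61.8 to 74.6 CPM, lay below the other 6, at 88.5 to 184 CPM. Within groups the level for number 13 was 1.67 times that for number 1 in EV, 2.001 times in SH2 and 2.47 times in SH3. This contrast called 46.3% of all genes, and 22.2% as lower, so the share of 1 in 7 members was not above that of genes in general. MMP2 was called in every fit that left out 1 sample, with differences of -1.01 to -0.78.

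The other members did not pass in this contrast. ADAM17 was nearest, at -0.15 (SE 0.06, edgeR adjusted p 0.0547), and passed with DESeq2 size factors in edgeR (adjusted p 0.0459). TIMP3 was at -0.14 (SE 0.16, edgeR adjusted p 0.496), MMP14 at -0.22 (SE 0.16, edgeR adjusted p 0.276), ADAM10 at -0.11, TIMP2 at 0.08 and TIMP1 at 0.06. MMP14 passed without the SH3 sample numbered 1 (-0.53, adjusted p 0.00241), and TIMP3 passed without the SH3 sample numbered 25 (-0.28, adjusted p 0.0367).

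Between numbers 25 and 13, edgeR called 0 of the 7 members and 5.87% of all genes, DESeq2 called 0 members and 7.73% of all genes, and 2 members and 23.8% of all genes had an unadjusted p under 0.05. These were TIMP3, at -0.52 (SE 0.18, edgeR adjusted p 0.118), and MMP14, at -0.44 (SE 0.18, edgeR adjusted p 0.167). Without the SH3 sample numbered 1, both passed, TIMP3 at -0.50 (edgeR adjusted p 0.0357) and MMP14 at -0.44 (edgeR adjusted p 0.00816). TIMP3 was highest for number 13 in every group.

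**Figure D4:**
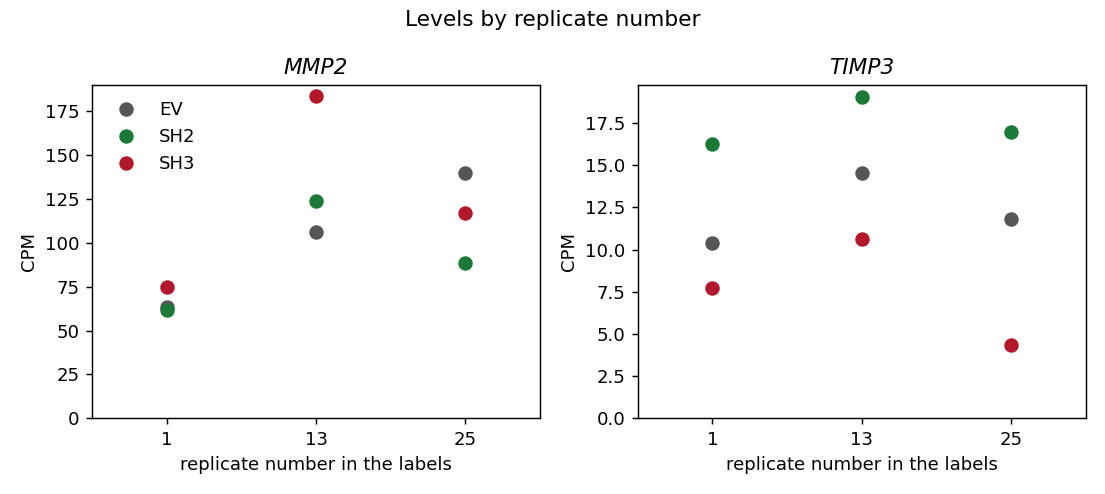
CPM of MMP2 and TIMP3 in the 9 samples arranged by the replicate number of the labels, with colours for the groups. The 3 samples numbered 1 are the lowest for MMP2 (61.8 to 74.6 CPM), whereas for TIMP3 the groups keep the order SH2, EV and SH3 at each number.

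Genes with a pattern like that of TIMP3 were sought by the Pearson correlation of log2 CPM over the 9 samples, after the mean of each replicate number was subtracted, among 12640 genes with a mean of at least 1 CPM. The 5 highest values were those of HSDL1 (0.973), EIF5AL1 (0.958), B4GALNT3 (0.956), R3HDM4 (0.953) and GABPB1 (0.948). The 3 lowest were FTO (-0.966), SNX20 (-0.957) and C16orf86 (-0.953). With 9 points and so many genes such values are a description. All samples share the group means, and the size of the difference varied: between SH3 and SH2 it was -1.36 (SE 0.23) for B4GALNT3 in the blocked fit, but -0.20 (SE 0.06) for HSDL1 and -0.15 (SE 0.06) for R3HDM4. B4GALNT3, a glycosyltransferase, was 1.96 ± 1.17 CPM in EV, 2.89 ± 2.09 in SH2 and 1.06 ± 0.499 in SH3 (SD, n = 3 each). Among the members ADAM17 had the most negative value (-0.81), MMP2 was at -0.48, ADAM10 at 0.43, and TIMP1, TIMP2 and MMP14 lay between -0.18 and 0.01. These values carry the group differences on which TIMP3 was selected. How many of all genes had a value as low as that of ADAM17 was not counted, so nothing particular to ADAM17 is read from it.

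The wider pathway was described with 107 genes listed by function. Since the lists were drawn up with earlier results of these data known, their p-values are not independent evidence. Of the 107 genes, 53 passed the filter. These were 7 of 20 other MMPs, 7 of 19 other ADAMs, 7 of 19 ADAMTS proteases, 14 of 16 convertases and sheddase partners and 18 of 25 sheddase substrates. None of 8 other inhibitors passed, and the highest count of any of them was 19. Without the block, edgeR called 0 of the 53 in each contrast, and 2, 5 and 5 of them had an unadjusted p under 0.05 for SH3 against SH2, SH2 against EV and SH3 against EV, where 2.06%, 5.37% and 5.09% of all genes did. DESeq2 called 0, 2 and 0, against 0.0775%, 0.168% and 0.207% of all genes.

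With the replicate block, 2 of the 53 fell in SH2, against 0.183% of all genes called as lower, 1 fell in SH3, against 0.232%, and none rose. Between the shRNAs 0 of the 53 passed. FURIN, the convertase that removes the inhibitory propeptide of MMP14, ADAM10 and ADAM17, was 169 ± 15.6 CPM in EV, 122 ± 5.11 CPM in SH2 and 147 ± 4.09 CPM in SH3 (SD, n = 3 each). It fell in SH2 by 0.47 on the log2 scale (SE 0.07, edgeR adjusted p 0.0428 with the block and 0.808 without). NOTCH2, a receptor that ADAM10 cuts, fell in SH2 by 0.54 (SE 0.08, edgeR adjusted p 0.0428 with the block and 0.808 without). Both calls were lost when a length correction was added to the block, with FURIN at -0.44 (edgeR adjusted p 0.0727) and NOTCH2 at -0.35 (edgeR adjusted p 0.100). In SH3 the values of FURIN and NOTCH2 were -0.20 and -0.12, and neither passed (edgeR adjusted p 0.191 and 0.437 with the block), and the value of NOTCH2 was 0.04 with the length correction. The difference between the shRNAs did not pass for FURIN (0.27, SE 0.07, edgeR adjusted p 0.194) or NOTCH2 (0.43, SE 0.08, edgeR adjusted p 0.0884). The paper reports lower NOTCH2 with ASXL2 loss in SKNO-1 cells, so its value here is not a separate result.

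MERTK, a receptor kinase of the TAM family that ADAM17 sheds, was the gene that fell in SH3. It was 8.84 ± 1.06 CPM in EV, 5.97 ± 1.23 CPM in SH2 and 5.36 ± 1.31 CPM in SH3 (SD, n = 3 each). The blocked log2 difference was -0.74 (SE 0.12, edgeR adjusted p 0.0308 with the block and 0.967 without) in SH3 and -0.58 (SE 0.12, edgeR adjusted p 0.0738) in SH2. CD44, the hyaluronan receptor and a substrate of MMP14 and ADAM10, was at 0.45 in SH3 (SE 0.09, edgeR adjusted p 0.0504) and did not pass with the block alone, but passed when the length correction was added (0.50, edgeR adjusted p 0.0467). The medians of the 53 genes without the block were -0.01 for SH3 against SH2, -0.05 for SH2 against EV and -0.04 for SH3 against EV, where those of all genes were 0.00, 0.01 and 0.01. These blocked calls were few and moved with single libraries: with 1 sample left out at a time, the count for SH2 against EV was 0 in 7 of 9 fits, and 12 without the SH3 sample numbered 1 and 5 without the SH3 sample numbered 13. For SH3 against EV it was likewise 0 in 7 of 9 fits, and 3 and 2 without those same samples.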

How the data were processed

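The labels name the Illumina TruSeq chemistry and total RNA, and the paper reports poly(A) selection with no record of strand. The extraction protocol in the labels is written for sorted marrow cells, at odds with the cell line. The submitters' processing notes name STAR, featureCounts and DESeq2 and the build hg19 (GRCh37), without roles or versions. The deposited values were raw counts per RefSeq transcript, 48104 rows per sample, with reads shared by isoforms counted in each.

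Each symbol was represented by its row with the highest total. Genes were kept by filterByExpr (minimum count 10, minimum total 15), scaled by TMM and tested with edgeR 4.0.16 (R 4.3.3), quasi-likelihood F test, all 9 samples, 1 coefficient per group, 6 residual degrees of freedom, Benjamini-Hochberg adjustment over 14199 genes, threshold 0.05. The SE was the log2 difference divided by the square root of F. Log2 CPM used a prior count of 2. Floors took 3 counts. Alternatives were DESeq2 1.42.0, RLE size factors, no filter, the mean over rows of a symbol, a length correction, and leaving out each sample. The fits were tested on simulated data.

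The blocked fit added the replicate number (4 residual degrees of freedom). The numbers come from the labels. Deviations from group means correlated at 0.398 to 0.731 over the 9 same-numbered pairs and at -0.616 to 0.306 over the 18 other pairs, so the numbers were taken to pair the samples. Centring within groups lowers the second range. Number 13 was the least distinct: SH3 13 correlated at 0.398 with EV 13 and at 0.306 with EV 25.

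Coordinates and lengths came from GENCODE 44 mapped to GRCh37, upstream sequence from RefSeq. Members, lists and naming rules were chosen with earlier results of these data known. Named were the members, ASXL2, genes that overlap a TIMP gene, listed genes called in a contrast or else the 2 with the smallest p, and the 5 most and 3 least TIMP3-like genes. CEP295NL, inside TIMP2, was not analysed here.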

Additional observations from a re-analysis of the deposited data

Results flagged for a closer look

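TIMP3 lay on opposite sides of EV with the 2 shRNAs, although edgeR called neither difference from EV, with or without the replicate block, and SH3 and EV overlapped. In every SH2 sample it was above the EV sample of the same number, with a mean log2 ratio of 0.52 (SD 0.13, n = 3), and in every SH3 sample it was below, with a mean of -0.77 (SD 0.58, n = 3). The difference between these effects was not tested, since the gene was chosen with it in view, and both are taken against the same EV samples. ASXL2 itself was lower in both groups, with mean log2 ratios of -1.04 (SD 0.13, n = 3) in SH2 and -1.14 (SD 0.25, n = 3) in SH3.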

How the results depend on the processing

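TIMP3 was selected on its differences between these groups, so its calls are given as counts that describe the settings and not as evidence. Among the members, between SH3 and SH2 the 0 calls of the unblocked edgeR fit became 1, TIMP3, with the replicate block, with the block and a length correction, with DESeq2, and, chosen after seeing the data, with DESeq2 and the block and with the block without the samples numbered 1. The last 2 settings also gave 1 member, TIMP3, for SH3 against EV, and 1 gene of the wider lists for SH3 against SH2. In the wider lists, SH2 against EV went from 0 to 2 calls with the block, 2 with DESeq2, 5 with the block without the samples numbered 1 and 7 with DESeq2 and the block, and stayed at 0 with the block and length correction, where FURIN and NOTCH2 were lost. SH3 against EV went from 0 to 1, 5 and 3 with the block, the block without the samples numbered 1 and DESeq2 with the block, and to 2, MERTK and CD44, with the block and length correction. ASXL2 passed the threshold in each of these: SH2 against EV at -1.04 with the block, -0.82 with block and length correction, -1.03 with DESeq2, -0.97 with the block without the samples numbered 1 and -1.04 with DESeq2 and the block, and SH3 against EV at -1.14, -0.96, -1.12, -1.04 and -1.14 in the same order. The cause of these changes was not tested. The block is the paired analysis, and it changed no other call of the results tested with it.

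RLE size factors gave 2 members, not 1, for the samples numbered 1 against the rest. Of the 5 genes most like TIMP3, 0 remained without centring on the replicate number and 3 with a mean CPM of at least 10. With 1 sample left out at a time, over blocked and unblocked fits, members called ran from 0 to 1 in each contrast between groups, from 1 to 2 for number 1 against the rest and from 0 to 2 for 25 against 13. The wider lists ran from 0 to 2 for SH3 against SH2, 0 to 12 for SH2 against EV and 0 to 3 for SH3 against EV. TIMP3 ran from -1.53 to -0.92 for SH3 against SH2, from 0.36 to 0.66 for SH2 against EV and from -1.02 to -0.41 for SH3 against EV, and ASXL2 from -1.13 to -0.95 in SH2 and from -1.32 to -1.01 in SH3. No TIMP3 or ASXL2 value changed sign in any setting run. A level under the floor of 3 counts, as for RECK and TIMP4, could not be told from 0 at this depth.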
